A study of Ciona robusta with 6 samples.

Results

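The pharyngeal blood sinus (PS) is the vessel that joins one end of the heart of the tunicate Ciona robusta, and it was set here against the central cardiac tube (C) between the vessels. Of the 6 libraries in the series, 4 belong to this pair, with 2 PS and 2 C libraries, and all 793 genes in the deposited table entered the comparison. The other 2 libraries come from the blood sinus beside the stomach (SS) at the opposite end of the heart and serve to estimate the spread and to ask where the PS differs from the other vessel. All animals were wild caught adults that received no treatment, and each library came from heart pieces pooled over animals. According to the study's methods, whole hearts were cut into these parts, so the groups may share animals. By the same account, the pericardial cells were taken off, and each sinus piece kept a little of the neighbouring tubular muscle. Neither sinus group is thus pure vessel. The labels do not say that the 2 pools of a group came from separate sets of animals, so p-values measure the spread between pooled libraries, part of which may be technical.

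The tunicate heart is a single muscular tube folded within a pericardium. It has no valves and reverses the direction of its beat from time to time, so that each end pumps into its vessel in turn and neither is permanently inflow or outflow. The vessel at the pharyngeal end runs below the endostyle, a mucus-secreting groove of the pharynx that also takes up iodine, and the circulation is open. The comparison asks which genes mark the vessel at this end as distinct from the beating tube.

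The values are FPKM, that is, fragments per length of gene. Their scale is a size factor of each library, 0.975 to 1.03, times a total shared by all libraries. That total is the geometric mean of the libraries' totals over the 793 listed genes, not over the genome. FPKM are thus not shares of each library's own total. Between 782 and 787 of the listed genes were above 0 in each library, and the libraries' adjusted totals over these genes were 1412759 to 1531216 in PS, 1481832 to 1493761 in SS and 1838786 to 1950483 in C. The sequencing depth is unknown. Differences are given as PS minus C of log2(FPKM + 1) with the standard error of a limma fit over the 6 libraries, and the added 1 makes the change of a gene with low FPKM look smaller than it is. The 2 libraries of a group differed by a median of 0.155 in PS, 0.204 in SS and 0.182 in C on this scale. Heart muscle genes were abundant in every library: tropm1, a tropomyosin gene, had 6341 and 6749 FPKM in PS, against 9102 and 8245 FPKM in C.

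In all, 59 of 793 genes (7.44%) passed a Benjamini-Hochberg adjusted p of 0.05 between PS and C, of which 40 (5.04%) were higher and 19 (2.4%) lower in PS. An unadjusted p under 0.05 was reached by 185 genes (23.3%). The genes that rose were mostly rarer than those that fell. The 40 higher genes had a median level of 124 FPKM in PS and 34.8 FPKM in C, and 16 of them averaged under 5 FPKM in C, where 88 of all 793 genes did. The 19 lower genes had a median of 442 FPKM in PS and 782 FPKM in C. The changes upward were also larger, with 18 of the 40 past 2 on the log2 scale, against 2 of the 19 downward. The libraries of the groups did not overlap for any of the 59 genes, but both PS libraries lay above both C libraries for 238 genes (30%) and below them for 251 (31.7%), so that a lack of overlap by itself is common in this table. As these are bulk samples, fewer cells of a type and less RNA per cell cannot be told apart, in this or any later comparison.

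The count depends on the fit. When each library was shifted to the same median, which moved the median difference of all genes by -0.09, 44 genes passed as higher and 43 as lower, and with the authors' adjusted values in place of FPKM 26 were higher and 20 lower. Without a trend of the variance on the level 13 genes passed, and leaving out C replicate 1 or C replicate 2 left 2 and 0 genes with the term for the removed factor and 32 and 40 without that term, whereas all 59 genes kept their sign in every fit that tested them. That sign was largely fixed in advance, as the 59 genes were picked from these same libraries and their PS and C libraries did not overlap. A set of 10 alternative fits used every library or PS and C alone. On the higher side th, pax3/7-like, six12, ci-gnrhr4, hox3 and LOC494380 passed in each, and on the lower side LOC100177903 did. The genes hnf6, fut8 and LOC100101819 passed in 9 and were not tested in the other, which left out genes averaging under 5 FPKM.

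**Figure D1:**
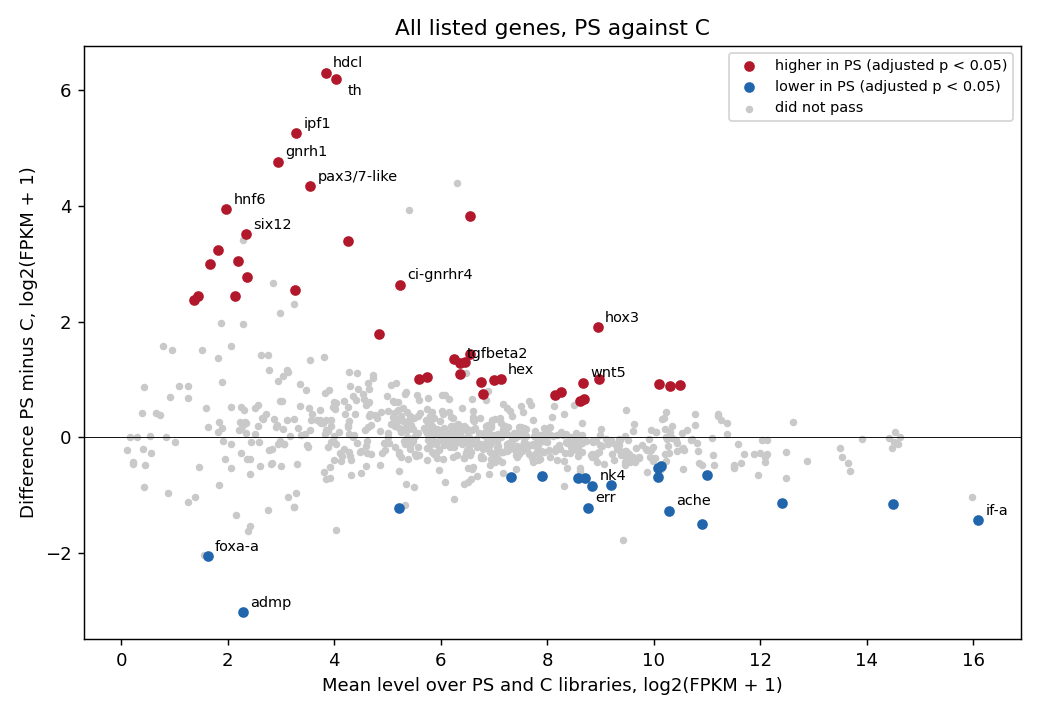
Difference between PS and C, log2(FPKM + 1), against the mean level of the 4 libraries on the same scale, 1 point per listed gene, with the 40 genes higher in PS in red and the 19 lower in PS in blue. The largest positive differences, up to 6.30 for hdcl, lie at low mean levels, while the lower genes reach up to if-a, the most abundant gene shown.

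Genes for signalling molecules of nerve and secretory cells and their receptors changed in both directions. Of 23 such genes listed, 6 rose in PS (26.1%, beside 5.04% of all genes) and 3 fell (13.0%, beside 2.4%). The median difference of the list was 0.79, where that of all genes was -0.000448. This list and the later ones were assembled with earlier results of these data known. Their shares therefore describe the lists and are not a test. Both PS libraries were above both C libraries for 15 of the 23, beside 238 of all 793 genes (30%). They were below both C libraries for 4, beside 251 of all genes (31.7%). The genes that rose are named for making amines or a peptide hormone, or for receiving peptides or light. The genes that fell belong to acetylcholine signalling and to the vasopressin family.

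Among the enzymes, hdcl, whose symbol is that of a histidine decarboxylase-like enzyme, the kind that makes histamine, had the largest difference in the table. It had 339.9 and 46.2 FPKM in the PS libraries, against 0.432 and 0.816 FPKM in the C libraries. The log2 difference was 6.30 ± 1.01 (limma adjusted p = 0.0268). All C values were below 1 FPKM, while the PS libraries themselves were 7.35-fold apart, which is the widest gap among the genes that rose. The gene th, tyrosine hydroxylase, catalyses the rate-limiting step in making dopamine and the other catecholamines. Its level was 222 and 88.2 FPKM in PS, against 0.423 and 1.60 FPKM in C. That is 154-fold by the group means and 6.20 ± 0.57 as a log2 difference (adjusted p = 0.00693), with the PS libraries 2.52-fold apart.

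Of the peptide genes, gnrh1, which encodes gonadotropin-releasing hormone peptides, was called. It had 24.4 and 62.3 FPKM in PS, against 1.17 and 0 FPKM in C, a log2 difference of 4.77 ± 0.64 (adjusted p = 0.0183). Here PS replicate 2 was the higher library, the reverse of hdcl and th. The gene ci-gnrhr4, whose symbol is that of a GnRH receptor, rose as well. It had 108 and 80.2 FPKM in PS, against 14.3 and 13.9 FPKM in C, which is 6.68-fold by the means and 2.64 ± 0.29 on the log2 scale (adjusted p = 0.00998). The other GnRH receptor genes were lower in level and did not pass: gnrhr2 differed by 1.98 (adjusted p = 0.111), gnrhr1 by 1.5 and gnrhr3 by 0.65. The tachykinin precursor gene tk differed by 1.42 (adjusted p = 0.122) and the galanin-like peptide gene ci-galp by 1.38 (adjusted p = 0.0632), both with each PS library above each C library.

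Further receptor genes completed the group. The gene tkr, whose symbol is used for a tachykinin receptor, had 20.1 and 7.64 FPKM in PS, against 0.811 and 1.15 FPKM in C, a log2 difference of 2.77 ± 0.58 (adjusted p = 0.0440). It is one of the weaker calls and passed in 4 of the 10 alternative fits. The opsin gene opsin3, a light receptor, had 29.2 and 16.96 FPKM in PS, against 2.59 and 3.43 FPKM in C, a log2 difference of 2.55 ± 0.43 (adjusted p = 0.0273). General genes of nerve terminals did not pass. The synaptic vesicle gene syt1 differed by 0.84 (adjusted p = 0.297), the GABA-synthesis enzyme gene gad by 0.29, and syn, a synapsin symbol, was listed at 0 in both PS libraries and at 0.380 and 0.359 FPKM in C.

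The lower genes of this group were 2 genes of acetylcholine signalling and a peptide receptor. The gene ache, acetylcholinesterase, which breaks acetylcholine down, had 802 and 798 FPKM in PS, against 1819 and 2039 FPKM in C. PS thus held 41.5% of the level in C, a log2 difference of -1.27 ± 0.12 (adjusted p = 0.00693). The nicotinic acetylcholine receptor gene nachr had 132 and 117 FPKM in PS, against 200.5 and 200.5 FPKM in C (-0.68 ± 0.15, adjusted p = 0.0476). The gene ci-vp-r, a receptor gene of the vasopressin family, had 413 and 471 FPKM in PS, against 832 and 731 FPKM in C (-0.82 ± 0.13, adjusted p = 0.0255). For each of these genes the difference between the libraries of a group was small beside the difference between the groups.

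**Figure D2:**
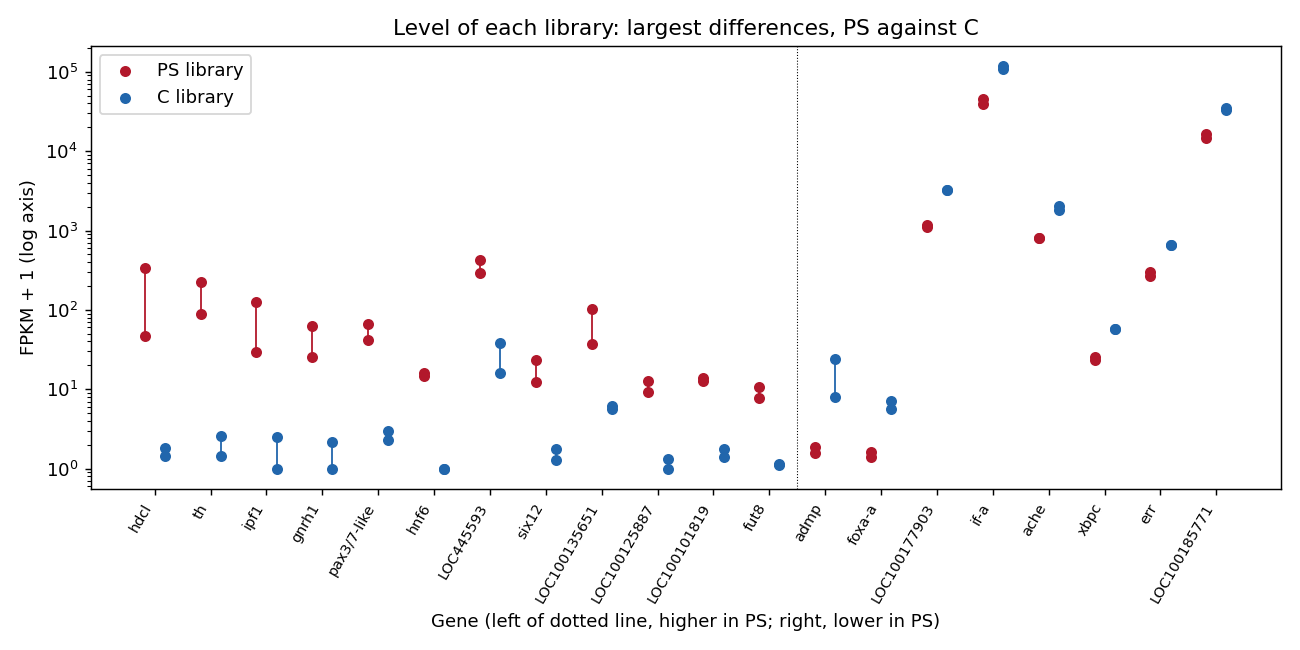
Level of each PS library (red) and each C library (blue) as FPKM + 1 on a log axis, for the 12 genes with the largest positive difference (left of the dotted line) and the 8 with the most negative (right). A line joins the 2 libraries of a group, and the PS libraries stand far apart for hdcl (339.9 and 46.2 FPKM) but close together for hnf6 (15.2 and 13.7 FPKM).

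Homeobox genes formed the next group. Hox genes encode transcription factors that record position along the body axis, and ParaHox genes are their sister group. Of 5 listed, 3 rose in PS and none fell, with a median difference of 1.01. The shares over all 793 genes were 5.04% higher and 2.4% lower. With 5 members, the lack of a lower gene says little. The gene hox3 was the most abundant of them in PS. It had 1048 and 874 FPKM in PS, against 233 and 280.2 FPKM in C, which is 3.75-fold by the means and 1.90 ± 0.15 on the log2 scale (adjusted p = 0.00545). Its neighbour in number hox4 had 673 and 749 FPKM in PS, against 414 and 298 FPKM in C (1.01 ± 0.21, adjusted p = 0.0419). By contrast hox5 was about level, with 411 and 483 FPKM in PS, against 457 and 475 FPKM in C, a log2 difference of -0.06 with an adjusted p of 0.884. The gene hox1 was near the floor, at 0.426 and 0.855 FPKM in PS, against 1.29 and 4.48 FPKM in C, and did not pass (adjusted p = 0.426). The ParaHox gene ipf1, the relative of vertebrate Pdx1, which is needed for the pancreas, had 123 and 28.5 FPKM in PS, against 0 and 1.51 FPKM in C, a log2 difference of 5.26 ± 0.77 (adjusted p = 0.0216), so it was nearly absent from the tube and uneven between the PS libraries.

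Of the 30 other homeobox and paired-box genes, 4 rose (13.3%, beside 5.04% of all genes) and 2 fell (6.67%, beside 2.4%). Their median difference was 0.32. The gene pax3/7-like, a relative of vertebrate Pax3 and Pax7, which act in neural crest and muscle precursors, had 66.3 and 40.4 FPKM in PS, against 1.27 and 2.0 FPKM in C, 32.6-fold by the means (4.34 ± 0.42, adjusted p = 0.00693). The gene hnf6 encodes a cut-class homeobox factor whose mouse relative acts in the liver, pancreas and bile duct. It had 15.2 and 13.7 FPKM in PS and was listed at 0 in both C libraries, so that its log2 difference of 3.95 ± 0.40 (adjusted p = 0.00707) depends on the added 1. The six-family gene six12 had 22.6 and 11.4 FPKM in PS, against 0.275 and 0.779 FPKM in C (3.51 ± 0.46, adjusted p = 0.0183). These are genes that the tube hardly expressed. The gene hex, given with the relatives of endothelial regulators below, was the remaining riser. Both genes that fell, nk4 and irx-b, are heart regulators and are described with the muscle genes.

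Of 13 listed relatives of genes that regulate the vertebrate endothelium and blood, 3 rose (23.1%, beside 5.04% of all genes). These 3 differed by close to the same amount. In vertebrates, relatives of soxF specify arterial and lymphatic endothelium, relatives of fli/erg1 keep endothelial identity, and relatives of hex mark early endothelium and foregut. The gene hex had 208 and 188 FPKM in PS, against 99.4 and 96.7 FPKM in C (1.0 ± 0.15, adjusted p = 0.0216). For soxF the levels were 178 and 183 FPKM in PS, against 84.4 and 95.6 FPKM in C (1.0 ± 0.17, adjusted p = 0.0272). For fli/erg1 they were 80.4 and 72.2 FPKM in PS, against 34.6 and 38.5 FPKM in C (1.04 ± 0.20, adjusted p = 0.0385). By the group means these are 2.02-fold, 2.01-fold and 2.09-fold. A further ETS gene, ets/pointed1, differed by 1.13 and just missed (adjusted p = 0.0679), whereas the flow-responsive factor klf2, the most abundant of the list, was at 1742 and 1726 FPKM in PS, against 1857 and 1865 FPKM in C (-0.10, adjusted p = 0.649). The median of all 13 was 0.06, with 8 above 0 and 5 below, and none passed as lower. Besides klf2, those below 0 were fli/erg4 at -0.35, spi/pu.1 at -0.10, ets/pointed2 at -0.08 and hif at -0.05.

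**Figure D3:**
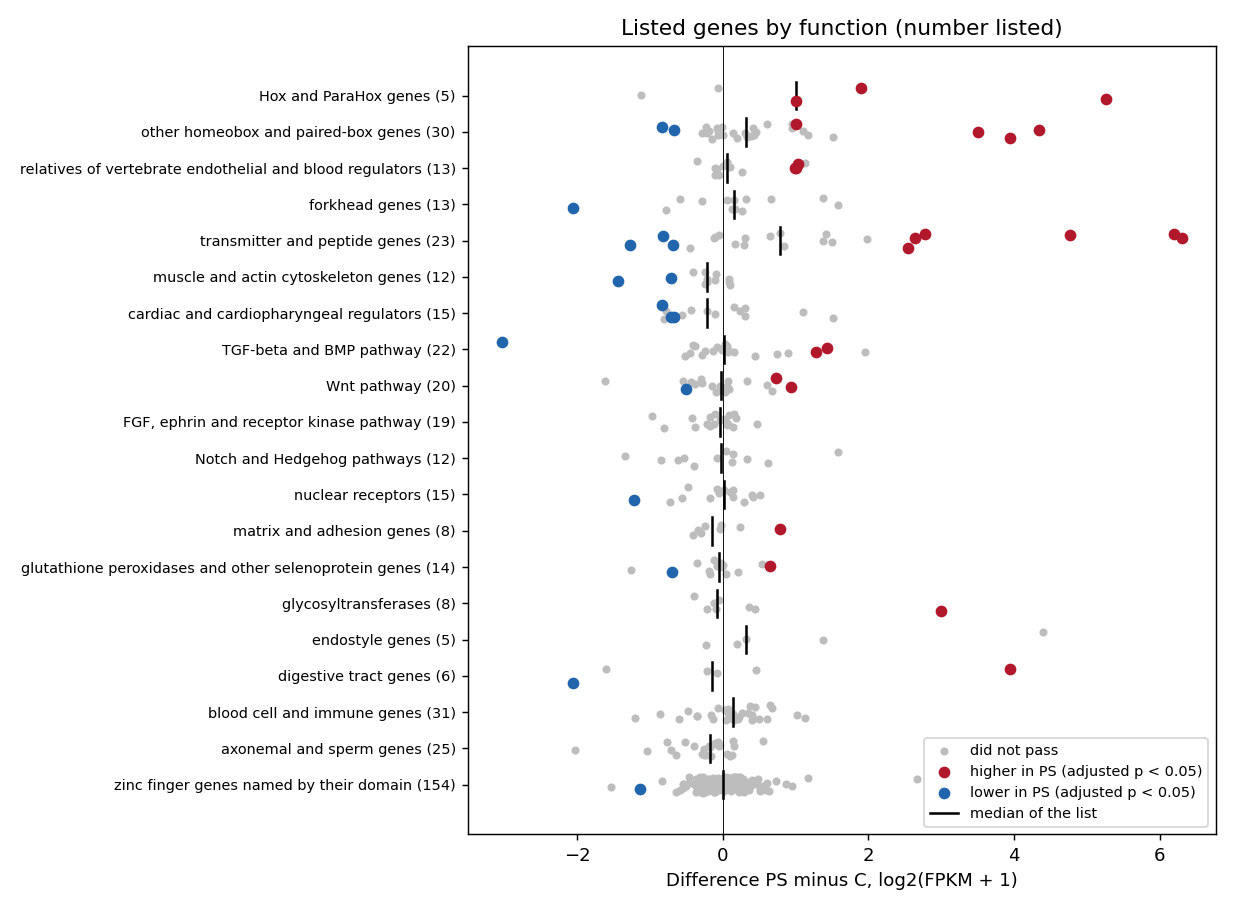
Difference between PS and C, log2(FPKM + 1), for each listed gene of 20 functional lists, with the number of genes in a list in brackets and its median as a black bar. Red points passed as higher in PS and blue points as lower; the transmitter and peptide list (median 0.79) and the Hox and ParaHox list (median 1.01) extend furthest to the right, and the muscle and cardiac regulator lists (median -0.22 each) have called genes only on the left.

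Signalling pathways changed at single ligands and inhibitors, and their receptors and transducers did not pass. In the TGF-beta and BMP pathway, 2 of 22 genes rose (9.09%, beside 5.04% of all genes) and 1 fell (4.55%, beside 2.4%). The median was 0.02. The ligand gene tgfbeta2 had 129 and 125 FPKM in PS, against 56.7 and 46.7 FPKM in C (1.29 ± 0.21, adjusted p = 0.0268). The gene lefty/antivin, whose product inhibits the ligand Nodal, had 188 and 125 FPKM in PS, against 53.5 and 59.0 FPKM in C (1.43 ± 0.25, adjusted p = 0.0285). The ligand gene admp, an anti-dorsalizing BMP relative, showed the most negative difference in the table. It had 0.852 and 0.570 FPKM in PS, against 6.89 and 23.3 FPKM in C (-3.02 ± 0.65, adjusted p = 0.0473), low levels throughout and uneven between the C libraries. The BMP antagonist gene noggin differed by 1.96 (adjusted p = 0.164).

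Of the 20 genes of the Wnt pathway, 2 rose and 1 fell, with a median of -0.02. The ligand gene wnt5, a noncanonical Wnt, had 635 and 506 FPKM in PS, against 259 and 335 FPKM in C (0.94 ± 0.18, adjusted p = 0.0385). Secreted frizzled-related proteins bind Wnt ligands outside the cell, and their genes went both ways. The gene sfrp3/4-b had 374 and 356 FPKM in PS, against 219.8 and 219.1 FPKM in C (0.73 ± 0.11, adjusted p = 0.0255), whereas sfrp1/5 had 953 and 944 FPKM in PS, against 1355 and 1328 FPKM in C (-0.50 ± 0.10, adjusted p = 0.0405). No gene passed in limma among the 19 of the FGF, ephrin and receptor kinase pathways (median -0.04, 2 at an unadjusted p under 0.05). The same held for the 12 of the Notch and Hedgehog pathways (median -0.02, 4 at an unadjusted p under 0.05). Of all genes, 7.44% passed and 23.3% reached an unadjusted p under 0.05 in limma. The nearest were fgf-na1 at -0.81 (adjusted p = 0.0888), delta-like at 1.58 (adjusted p = 0.0743) and gli, the transcription factor of Hedgehog signalling, at -0.84 (adjusted p = 0.0502). The call on gli turns on the fit, since it passed in 6 of the 10 alternative fits, the replicate block among them (adjusted p = 0.0486).

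Single genes rose in 3 lists of cell surface, sugar and redox functions. They are 12.5%, 12.5% and 7.14% of those lists, beside 5.04% of all genes. The neural cell adhesion gene ncam had 384 and 423 FPKM in PS, against 233 and 235 FPKM in C (0.78 ± 0.13, adjusted p = 0.0268), and was the only one of 8 matrix and adhesion genes to pass. The fibrillar collagen gene fcol1 was abundant and about level (-0.02, adjusted p = 0.953). The gene fut8, which encodes the enzyme that adds core fucose to N-glycans, had 9.55 and 6.69 FPKM in PS, against 0.132 and 0.125 FPKM in C (3.0 ± 0.43, adjusted p = 0.0216), and none of the other 7 of 8 glycosyltransferase genes passed. Among 14 genes for glutathione peroxidases and other selenoproteins, gpx_b rose, with 514 and 521 FPKM in PS, against 340.1 and 317 FPKM in C (0.66 ± 0.11, adjusted p = 0.0272), and gpx7 fell, with 298 and 303 FPKM in PS, against 516 and 463 FPKM in C (-0.70 ± 0.12, adjusted p = 0.0281).

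The remaining 18 genes that rose were outside the functional lists, and 9 of them carry only a locus symbol. Among the 12 largest differences, LOC445593 was the most abundant, with 292 and 425 FPKM in PS, against 37.7 and 14.9 FPKM in C (3.83 ± 0.51, adjusted p = 0.0183). The others were at low levels in the tube. LOC100135651 had 36.4 and 102.8 FPKM in PS, against 4.60 and 5.21 FPKM in C (3.40 ± 0.66, adjusted p = 0.0385). LOC100125887 had 8.14 and 11.8 FPKM in PS, against 0 and 0.311 FPKM in C (3.24 ± 0.51, adjusted p = 0.0268). LOC100101819 had 12.8 and 11.6 FPKM in PS, against 0.416 and 0.786 FPKM in C (3.05 ± 0.42, adjusted p = 0.0183). In each of these genes both PS libraries were well above both C libraries, with LOC100135651 the only one whose PS libraries were over 2-fold apart. The other 14 genes differed by 0.64 to 2.44. They included the transcription factor genes ci-mytf, a zinc finger gene related to Myt1, at 2.44 ± 0.46, dmrt1, of the DM-domain family known for sex determination in other animals, at 2.37 ± 0.42, and cagf9, an HMG-box gene, at 0.96 ± 0.20. The gene dmrt1 had 4.40 and 5.29 FPKM in PS, against 0 and 0.280 FPKM in C, the lowest PS level among the genes that rose.

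The genes that fell at the pharyngeal end included genes of the beating muscle. Of 12 muscle and actin cytoskeleton genes, 2 fell and none rose (median -0.22), and of 15 heart regulators, 3 fell and none rose (median -0.22), with smyd1 in both lists. Beside this, 2.4% of all genes fell and 5.04% rose. At that share of higher genes, lists of 12 or 15 can easily hold none, so their lack says little. The intermediate filament gene if-a had 45180 and 39726 FPKM in PS, against 110117 and 118307 FPKM in C. PS held 37.2% of the level in C (-1.43 ± 0.27, adjusted p = 0.0345). This gene alone made up 7.63% and 7.08% of the summed FPKM in the PS libraries, against 14.2% and 15.8% in the C libraries. The muscle methyltransferase gene smyd1, needed for sarcomere assembly in vertebrates, had 336 and 314 FPKM in PS, against 489 and 574 FPKM in C (-0.71 ± 0.14, adjusted p = 0.0385).

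The heart homeobox gene nk4, the relative of vertebrate Nkx2-5, had 369 and 320.5 FPKM in PS, against 611 and 616 FPKM in C, which is 56.2% of the level in C (-0.83 ± 0.13, adjusted p = 0.0255). The Iroquois gene irx-b, whose vertebrate relatives pattern the ventricle, had 188 and 189.9 FPKM in PS, against 306 and 298 FPKM in C (-0.67 ± 0.12, adjusted p = 0.0285). Other genes of the tube were lower in PS without passing, among them tropm1 at -0.41 (adjusted p = 0.148), hand at -0.43 (adjusted p = 0.135) and tbx2/3 at -0.80 (adjusted p = 0.225). The actin gene act (0.09, adjusted p = 0.858) and the muscle factor mef2 (-0.11, adjusted p = 0.708) were about level. In the opposite direction, isl, a LIM-homeobox gene of the second heart field in vertebrates, had 133 and 127 FPKM in PS, against 70.0 and 50.8 FPKM in C (1.11, adjusted p = 0.0583), passing in 4 of the 10 alternative fits, and irx-c differed by 1.51 (adjusted p = 0.105). The heart genes were therefore reduced in part and not absent from the PS pieces, which kept some tubular muscle. The muscle list summed to 83570 and 77630 FPKM in PS, against 150600 and 156700 FPKM in C, with no member at 0 in any library, and the part that this shared muscle plays in the other differences was not tested.

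The nuclear receptor gene err, whose vertebrate relatives drive mitochondrial and energy metabolism genes in heart muscle, had 270.2 and 297 FPKM in PS, against 664 and 651 FPKM in C (-1.21 ± 0.12, adjusted p = 0.00693). It was the only one of 15 nuclear receptor genes to pass (6.67% fell, beside 2.4% of all genes, median 0.03). The bile acid receptor relative fxr differed by -0.72 (adjusted p = 0.0774), and coup, of the COUP-TF family that acts in atrial and venous identity in vertebrates, had 58.7 and 43.1 FPKM in PS, against 66.2 and 84.4 FPKM in C (-0.56, adjusted p = 0.260). Among 13 forkhead genes, 1 fell (7.69%, beside 2.4% of all genes). This was foxa-a, related to the vertebrate FoxA factors of endoderm. It had 0.417 and 0.627 FPKM in PS, against 6.11 and 4.58 FPKM in C (-2.05 ± 0.41, adjusted p = 0.0415), so it was rare in both.

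Several strong decreases concerned genes with little annotation. LOC100177903 had 1102 and 1182 FPKM in PS, against 3217 and 3228 FPKM in C (-1.50 ± 0.11, adjusted p = 0.00545), a call that all 10 alternative fits kept. LOC100185771 had 16321 and 14685 FPKM in PS, against 33271 and 35430 FPKM in C (-1.15 ± 0.19, adjusted p = 0.0268), and was the second most abundant gene that fell. The gene xbpc had 24.6 and 22.4 FPKM in PS, against 56.7 and 55.7 FPKM in C (-1.22 ± 0.24, adjusted p = 0.0385). The abundant gene zf(bbox/ring)-6 was the only one of 154 genes named by a zinc finger domain to pass, at 3502 and 3830.0 FPKM in PS, against 8128 and 7893 FPKM in C (-1.13 ± 0.13, adjusted p = 0.0117). Each of these was lower in PS by far more than the difference between libraries of a group. The other 3 genes that fell, LOC494354, rngi and ci-dril1/2, differed by -0.69 to -0.52.

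Genes that mark neighbouring organs were read alongside, since the vessel lies against the endostyle and the pharynx and carries blood. According to the study, endostyle genes in PS and digestion genes in SS likely came in part from neighbouring tissue carried over in dissection. Which of the genes that rose in PS come from such tissue was not tested. The gene listed as endostyle-specific had 128 and 1010 FPKM in PS, against 27.8 and 9.21 FPKM in C, a log2 difference of 4.40 ± 1.02 that lay next to the threshold (adjusted p = 0.0583), and the PS libraries differed 7.88-fold. It passed in 4 of the 10 alternative fits, such as without genes averaging under 5 FPKM (adjusted p = 0.0355) and without the factor term (adjusted p = 0.0445). The other 4 of 5 endostyle genes did not pass: foxq differed by 1.37, foxE by 0.33, pax2/5/8-b by 0.20 and pax258 by -0.23. The list summed to 572 and 1425 FPKM in PS, against 467 and 466 FPKM in C, and no member was at 0 in PS or C. Its part in the differences of the other genes was not tested. Of the 7 risers that were over 2-fold apart between the PS libraries, gnrh1 and LOC100135651 were higher, as endostyle-specific was, in PS replicate 2, whereas hdcl, th, ipf1, tkr and vc182 were higher in PS replicate 1.

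None of the 31 blood cell and immune genes passed in limma, with a median of 0.14, 22 above 0 and 10 at an unadjusted p under 0.05. Of all genes, 7.44% passed in limma, 49.8% were above 0 and 23.3% reached an unadjusted p under 0.05. Vanabins are vanadium-binding proteins known from ascidian blood cells. The 4 listed vanabin genes were each slightly higher in PS without passing, by 0.38 for vanabin1, 0.41 for vanabin3, 0.26 for vanabin4 and 0.44 for vanabin5. The whole list summed to 21700 and 18680 FPKM in PS, against 17400 and 16740 FPKM in C, with no member at 0, so blood cell transcripts were present in both and their part in the result was not tested. Of 6 digestive tract genes, hnf6 rose (16.7%, beside 5.04% of all genes) and foxa-a fell (16.7%, beside 2.4%). The chitinase-family gene gh18 differed by -1.60 (adjusted p = 0.142). The 6 genes summed to 317 and 327 FPKM in PS, against 323 and 298 FPKM in C. None of the 25 axonemal and sperm genes passed in limma (median -0.17, 2 at an unadjusted p under 0.05), and these genes summed to 784 and 520 FPKM in PS, against 835 and 694 FPKM in C.

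**Figure D4:**
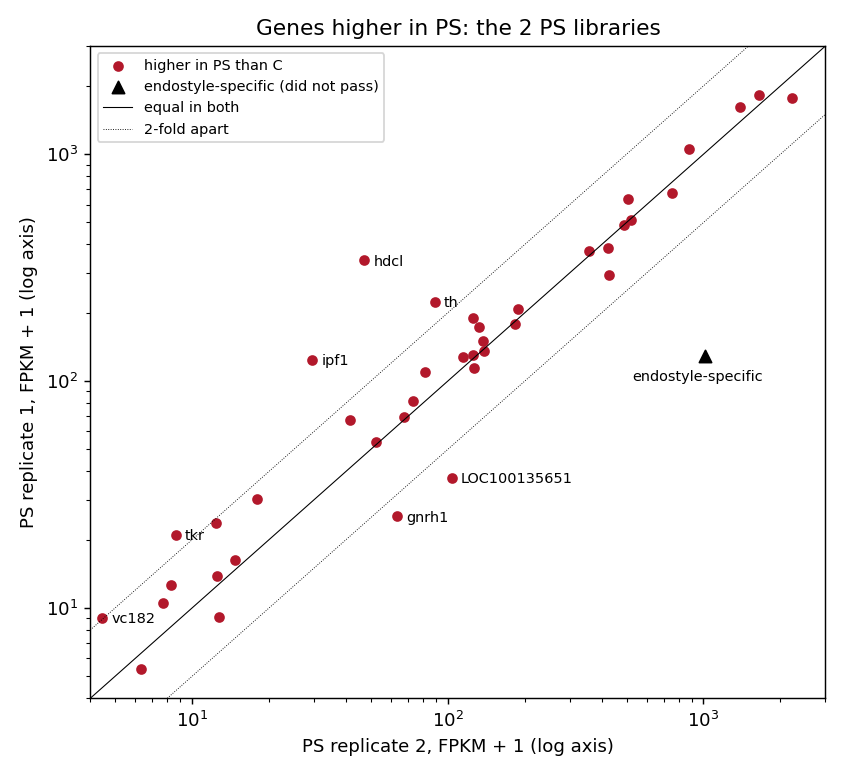
Level of each of the 40 genes higher in PS than C in PS replicate 1 (vertical) against PS replicate 2 (horizontal), FPKM + 1 on log axes, with endostyle-specific as a triangle. The dotted lines mark libraries 2-fold apart; 7 genes lie outside them by FPKM, with hdcl furthest towards replicate 1 (7.35-fold), and endostyle-specific far towards replicate 2 (7.88-fold).

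The vessel at the stomach end was used to ask which of these genes are particular to the pharyngeal end, with the same fit. Between PS and SS, 10 of 793 genes passed (1.26%), 6 higher (0.757%) and 4 lower (0.504%) in PS. The 6 that were higher in PS than SS were th, pax3/7-like, hnf6, opsin3, fut8 and LOC100101819, each given above against C with the same PS libraries. The gene th had 222 and 88.2 FPKM in PS, against 1.20 and 0.838 FPKM in SS (PS minus SS 6.13 ± 0.57, adjusted p = 0.0107). For pax3/7-like the SS libraries had 1.60 and 1.26 FPKM (4.44 ± 0.42, adjusted p = 0.0107). For hnf6 they had 0.188 and 0.198 FPKM (3.69 ± 0.40, adjusted p = 0.0181). The differences from SS were 3.09 for opsin3, 3.08 for fut8 and 3.05 for LOC100101819 (adjusted p = 0.0337 each). In all 6 the stomach vessel was about as low as the tube.

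Next to the threshold were ci-gnrhr4, at 1.76 ± 0.29 above SS (adjusted p = 0.0599), and hdcl, at 5.30 ± 1.01 (adjusted p = 0.0795), with SS libraries at 0.815 and 4.70 FPKM. The count of 10 is fragile. It was 2 with 0.1 added in place of 1 and 3 without genes averaging under 5 FPKM, and leaving out 1 library gave 57 (PS replicate 1), 31 (PS replicate 2), 0 (C replicate 1), 0 (C replicate 2), 1 (SS replicate 1) and 0 (SS replicate 2).

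For other genes that rose, no difference between the vessels was shown. Between SS and C 13 of 793 genes passed (1.64%), and hox3, ipf1 and six12 were among those higher in SS, in a comparison that shares the C libraries with that of PS. The gene hox3 had 1048 and 874 FPKM in PS, 879 and 831 FPKM in SS, and 233 and 280.2 FPKM in C, and PS minus SS was 0.16 with a 95% interval of -0.20 to 0.53. The gene ipf1 had 78.5 and 50.7 FPKM in SS, between the 2 PS libraries, with a wide interval for PS minus SS of -1.95 to 1.79. For six12, with 11.9 and 9.53 FPKM in SS, the interval was -0.57 to 1.68, and for gnrh1, with 11.1 and 23.3 FPKM in SS, it was -0.35 to 2.80. The genes hex (166 and 185 FPKM in SS) and fli/erg1 (68.4 and 66.1 FPKM in SS) gave PS minus SS of 0.17 and 0.18. These last 3 genes did not pass between SS and C (adjusted p = 0.0618 for gnrh1, 0.0581 for hex and 0.0962 for fli/erg1).

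None of the 19 lower genes passed between PS and SS in limma, with 4 at an unadjusted p under 0.05, and 3 of them, LOC100177903, ci-vp-r and irx-b, also passed as lower in SS than C, against the same C libraries. For nk4 the SS libraries had 398 and 445 FPKM and PS minus SS was -0.29, with an interval of -0.60 to 0.02. For if-a they had 56125 and 57531 FPKM and the interval was -1.07 to 0.22. For ache and err PS minus SS was -0.60 and -0.64, which did not pass (adjusted p = 0.0934 and 0.0784), with SS at 1303 and 1130 FPKM for ache and 459 and 423 FPKM for err, between PS and C.

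**Figure D5:**
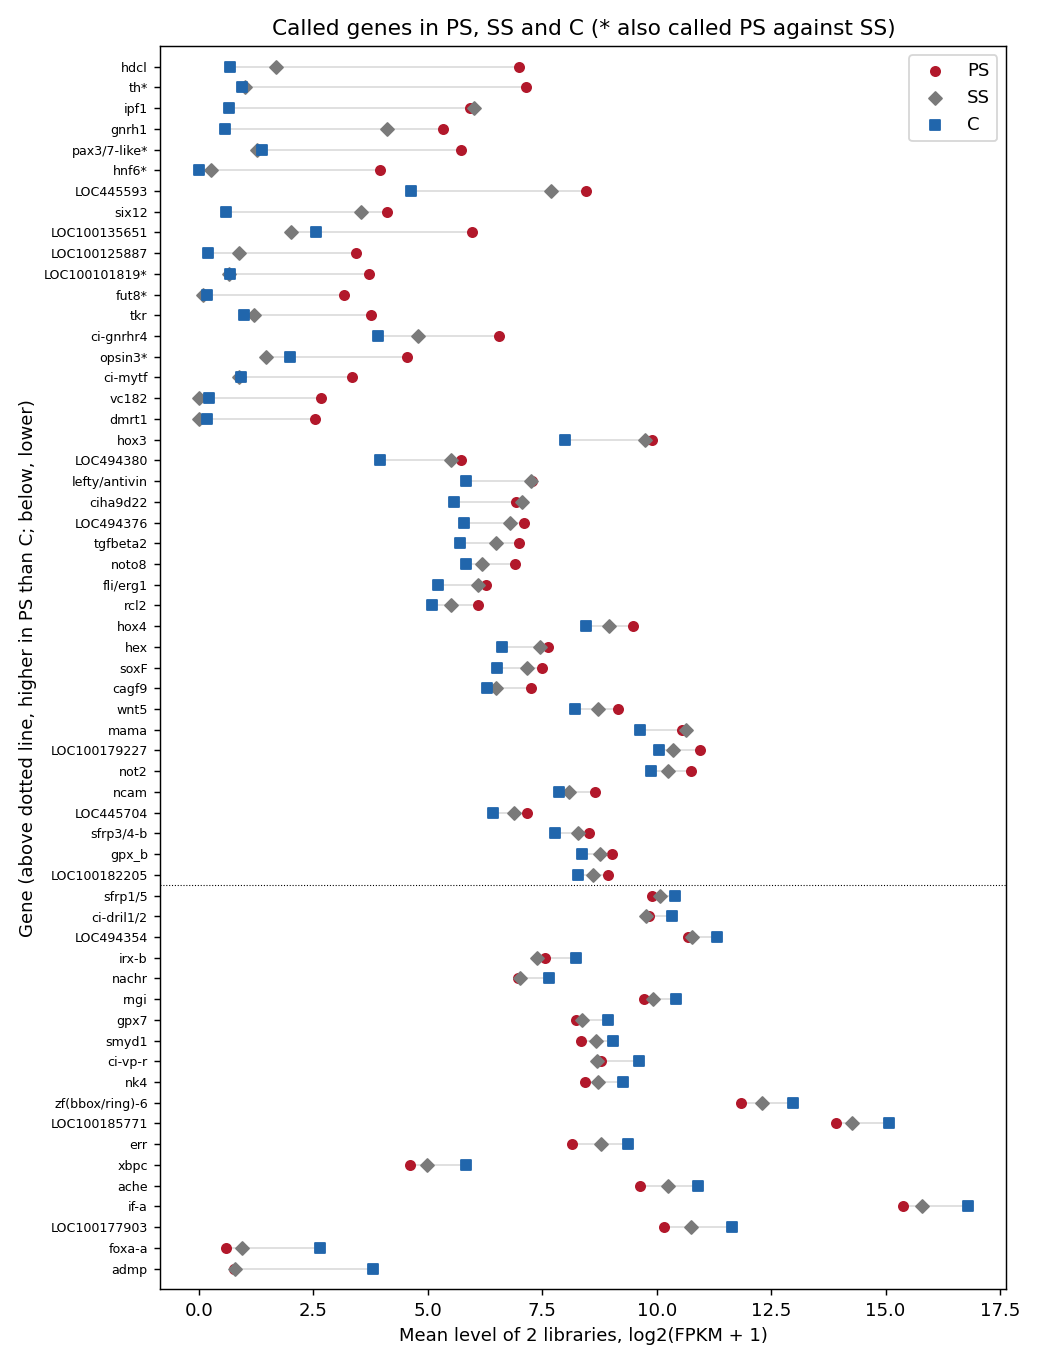
Mean of log2(FPKM + 1) over the 2 libraries of PS (red circles), SS (grey diamonds) and C (blue squares) for the 59 genes called between PS and C, those higher in PS above the dotted line. The diamond lies near the square for th, pax3/7-like and hnf6, which also passed against SS (asterisk), and near the circle for ipf1 and hox3.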

How the data were processed

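Total RNA of 6 pooled libraries was sequenced. Per the submitters' notes and the study's methods, the authors trimmed reads with cutadapt, aligned them with STAR to the UCSC Ciona genome ci3, counted them with featureCounts of Subread and used DESeq2, with 1 factor of unwanted variation removed. Per the study's methods, Ciona and zebrafish reads were handled alike, and tool versions are given only for zebrafish.

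The deposited columns headed raw were treated as a score, not as counts: in 179 genes averaging above 1000, replicate differences of the 3 groups gave singular values of 2.43, 1.79 and 0.0028, a tie that the removal of a factor leaves. The authors made the deposited FPKM from these values. For 100% of 708 genes they imply a whole gene length within 0.05. This holds with size factors of 0.975 to 1.03 and the geometric mean of the libraries' totals over the listed genes. The 9 columns of the authors' own fold changes, p-values and false discovery rates were not used, nor were their group means.

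Differences in log2(FPKM + 1) entered a linear model in limma (version 3.58.1, R version 4.3.3) of all 6 libraries, with group, a term for the removed factor (2 residual degrees of freedom) and a variance trend, with no filter on low values and Benjamini-Hochberg adjustment over 793 genes. The fit was also run on data simulated from its own variances with the same factor removed. Such data cannot show whether the model suits these libraries. Named in full are the 12 genes with the largest positive and the 8 with the most negative difference among those passing; called genes in a functional list and up to 4 others of a list are named too. Members and lists were chosen with earlier results of these data known, and lists were assembled from symbols; 0 symbols matched the reference table, so no positions or sequences are given. The main fit set no block on replicate number, although the parts were cut from the same hearts and may share animals. Same-numbered replicates had differences that correlated at -0.46 between PS and C. This cannot decide on pairing, since removal of the factor itself can produce that sign. The term for the removed factor weighted the groups by 0.531 (PS), 0.641 (C) and 0.554 (SS), which is close to a replicate block. Alternatives varied the pseudocount, filter, term, trend, scaling and libraries.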

Additional observations from a re-analysis of the deposited data

Results flagged for a closer look

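The 10 genes below were singled out because the PS and SS, 2 vessels set against the same C libraries, differed by the limma test of PS minus SS on log2(FPKM + 1), at an adjusted p under 0.05. The 6 higher in PS were th (6.13), pax3/7-like (4.44), hnf6 (3.69), opsin3 (3.09), fut8 (3.08) and LOC100101819 (3.05), whose values are given above.

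The 4 lower in PS did not pass between PS and C. The gene dlc, an axonemal dynein light chain symbol, had 0 and 1.13 FPKM in PS, 62.6 and 61.1 FPKM in SS, and 5.71 and 4.32 FPKM in C, with PS minus SS at -5.43. The gene zf(c2h2)-43 had 1.14 and 0.571 FPKM in PS and 19.0 and 39.3 FPKM in SS (-3.95), and was listed at 0 in both C libraries. The gene dead1a had 4.03 and 3.09 FPKM in PS and 29.0 and 45.3 FPKM in SS (-3.04). The gene soxh had 4.70 and 3.14 FPKM in PS and 23.2 and 31.9 FPKM in SS (-2.54). The 25 axonemal and sperm genes summed to 784 and 520 FPKM in PS, against 1166 and 2341 FPKM in SS, and the part of such transcripts in these values was not tested.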

How the results depend on the processing

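Between PS and C, where 59 genes passed, the count was 151 without the factor term, 148 with PS and C alone, and 13 without a trend. Leaving out 1 library gave 0 to 79 with the term and, without it, 32 to 147 (142 without SS replicate 1); with the term, the group left with 1 library takes up the term, by construction. A replicate block in place of the term gave 61 genes, and 10 between PS and SS, and changed no call of the 59, but gli passed with it (adjusted p = 0.0486). Chosen after seeing the data, a block on PS and C alone gave 186 and a crossed block 175. Between PS and SS, where 10 passed, the count was 2 with 0.1 added, 3 without genes under 5 FPKM and 33 without the term, and leaving out 1 library gave 0 to 57 with the term and, without it, 11 to 31 (16 without PS replicate 2 or SS replicate 2). All 59 genes kept their sign, which the lack of overlap between their PS and C libraries largely fixed in advance. Of the genes named without passing, hox5 turned to 0.054 and klf2 to 0.034 under quantile normalization, hox5 also to 0.053 without PS replicate 1 and the term, and with 1 library left out hox5 ranged over -0.231 to 0.103 and foxq over -0.044 (without C replicate 1) to 2.793. With 2 pools a group and unknown depth, small differences and genes near 0 are poorly resolved.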
